A study of Mus musculus with 6 samples.

Results

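Sterol regulatory element binding proteins (SREBPs) are the transcription factors that drive both cholesterol synthesis and fatty acid synthesis, and 35 genes of these pathways were listed by name as sterol enzymes, lipogenic enzymes and regulators. Of these, 33 were measured in inguinal white fat: 15 of the sterol branch, 14 of the lipogenic branch and 4 regulators, out of 12394 genes tested. No probe set carried Acat2 or Insig1 as its only gene symbol in the annotation used here, so neither gene was analysed. Of several probe sets of a gene, the one with the highest mean was used, and all values are log2(intensity + 1), where a difference of 1 is a doubling. Levels are compared between arrays for the same gene and not between genes, because probe sets differ in how brightly they hybridise.

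The tissue was subcutaneous white fat, labelled IWAT and read here as inguinal, from mice of a mixed C57BL6 and 129 background that were 8 weeks old and had eaten a high fat diet for 2 weeks. Control mice carried floxed Yy1 alleles (YY1flox/flox), and YY1bKO mice, which the labels call a brown fat knockout, carried the same alleles with Ucp1Cre, a Cre recombinase driven by regulatory sequences of Ucp1, so that recombination is directed to thermogenic adipocytes. Both groups thus shared the floxed alleles and the diet, and no group with Cre alone was labelled, so effects of Cre and of YY1 loss cannot be told apart. There were 3 arrays per group. Separate animals are not named in the labels, and a p-value here reflects only how these samples vary, which may be technical.

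Yy1, the targeted gene, measured 10.33, 10.52 and 10.62 among controls and 10.13, 10.41 and 10.20 among YY1bKO, and its difference was not past the threshold (limma adjusted p = 0.574), so the labels were not checked by the targeted transcript in whole fat. Ucp1, the gene whose regulatory sequences drive Cre, was 38.2-fold higher in YY1bKO (limma adjusted p = 1.91e-04). Adiponectin (Adipoq, 13.96 to 14.29), a marker of adipocytes, was high in all 6 arrays, as was Fabp4 (14.48 to 14.65).

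SREBPs are made as membrane proteins of the endoplasmic reticulum. When sterols are scarce, the escort protein SCAP carries them to the Golgi, where proteases release the active factor, and when sterols are plentiful INSIG proteins hold SCAP back. SREBP-2, the product of Srebf2, mainly drives the sterol pathway, whereas SREBP-1c, a product of Srebf1, and the sugar-responsive factor ChREBP, encoded by Mlxipl, drive fatty acid synthesis, which in adipose tissue supplies stored triglyceride. SREBPs act together with the factor NF-Y, which binds CCAAT boxes, and with Sp1, and YY1 has been described in cultured cells as a repressor at sterol-regulated promoters.

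Promoter windows from RefSeq (build GRCm38.p6, 250 bases before to 50 after an annotated start) were held for 26 of the 33 measured genes, in 36 windows. The 5 motifs searched on both strands were the sterol regulatory element in the form TCACNCCAC, the NF-Y box CCAAT, the E-box CACGTG, a YY1 motif in the form GCCATNTT and the Sp1 box GGGCGG. All 11 sterol genes with a window held an NF-Y box in at least 1 window, as did 8 of 11 lipogenic genes and 3 of 4 regulators, against 41.1% of all genes in the table. Counted by window, the NF-Y box was present in 11 of 14 sterol windows (78.6%) and 8 of 13 lipogenic windows (61.5%). Among regulators, several of which had more than 1 window, it was in 4 of 9 windows (44.4%). The share was 37.4% of all 32851 windows and 37.1% of the windows of genes tested here. The sterol regulatory element in this spelling matched in Hmgcs1 and in 1 of the 2 Mlxipl windows, and in 1.24% of all windows and 1.22% of those of genes tested. The Sp1 box was in 11 of 14 sterol and 6 of 13 lipogenic windows, or 78.6% and 46.2%, against 35.7% of all windows and 55.4% of the windows of genes tested, so the lipogenic share lay between these backgrounds. The E-box was in 3 of 14 and 1 of 13 (21.4% and 7.69%), against 7.15% and 9.11%. The YY1 motif was in 0 of 14 sterol and 0 of 13 lipogenic windows, in windows of the regulators Insig2 and Srebf2, and in 6.05% of all windows and 7.02% of those of genes tested. These are matches of letters in short windows and not measurements of binding.

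The 150 bases before the annotated start are shown for Hmgcs1, which holds the sterol regulatory element, for Idi1 and Mvk, the sterol genes in which control replicate 2 lay farthest above the other controls, and for Fasn, Thrsp and Acacb of the lipogenic branch, whose differences were positive. They lie at chr13:119690201-119690350 (plus strand) for Hmgcs1, chr13:8885456-8885605 (plus strand) for Idi1, chr5:114444119-114444268 (plus strand) for Mvk, chr11:120824548-120824697 (minus strand) for Fasn, chr7:97417551-97417700 (minus strand) for Thrsp and chr5:114165368-114165517 (plus strand) for Acacb. Each is written on the strand of its gene, with the NF-Y box in either orientation and the sterol regulatory element of Hmgcs1 in capitals.
Hmgcs1: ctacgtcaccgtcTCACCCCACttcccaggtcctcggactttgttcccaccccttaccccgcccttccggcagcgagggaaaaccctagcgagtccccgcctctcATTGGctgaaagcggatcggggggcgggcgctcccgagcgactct
Idi1: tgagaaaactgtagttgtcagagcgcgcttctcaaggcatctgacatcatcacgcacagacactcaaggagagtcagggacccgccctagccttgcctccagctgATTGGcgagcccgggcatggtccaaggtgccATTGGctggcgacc
Mvk: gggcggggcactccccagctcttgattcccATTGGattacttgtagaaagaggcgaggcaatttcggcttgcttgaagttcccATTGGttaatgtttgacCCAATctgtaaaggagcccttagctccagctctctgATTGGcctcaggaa
Fasn: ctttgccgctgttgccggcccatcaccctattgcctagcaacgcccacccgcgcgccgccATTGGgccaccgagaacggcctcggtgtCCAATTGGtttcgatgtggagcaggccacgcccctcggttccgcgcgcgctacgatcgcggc
Thrsp: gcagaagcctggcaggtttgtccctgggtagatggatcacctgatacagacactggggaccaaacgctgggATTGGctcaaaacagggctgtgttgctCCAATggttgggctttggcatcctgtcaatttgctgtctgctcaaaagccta
Acacb: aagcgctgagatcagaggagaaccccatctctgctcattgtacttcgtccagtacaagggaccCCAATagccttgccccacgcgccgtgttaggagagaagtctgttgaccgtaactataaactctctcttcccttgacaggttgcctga
The Hmgcs1 element starts at position -137, counted from the annotated start, and its nearest downstream NF-Y box at -45. Idi1 has 2 NF-Y boxes in this stretch, Mvk has 4, Fasn 3 of which 2 overlap, Thrsp 2 and Acacb 1.

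Before the genes are described, 1 array has to be named, because it was the highest array for most sterol genes. Control replicate 2 held the highest value of the 6 arrays in 13 of 15 sterol genes and in 19 of all 33 measured members, and in 1777 of all 12394 genes (14.3%). The same array held the highest mean of the skin keratinocyte list (3.0 above the mean of each gene over the arrays, against -0.68 to -0.50 in the other 5) and of the mammary epithelium list (1.77, against -0.54 to 0.08). Control replicate 2 exceeded the mean of the other 2 controls by over 1 in 10 of 13 keratinocyte genes and in 10 of 19 mammary genes. Of all 12394 genes 4.09% did so, as did 10 of 15 sterol and 4 of 14 lipogenic genes. Among the keratinocyte and mammary genes were Perp (13.18, against 4.40 and 4.44), Krt14 (12.45, against 5.25 and 4.76) and Epcam (10.86, against 4.80 and 5.92). Genes of differentiated epidermis and of milk were mixed in that array. Krt10 (8.403, against 6.59 and 6.29), Lor (7.90, against 4.64 and 4.597), Sprr1a (12.89, against 5.39 and 5.25) and Ltf, which encodes the milk protein lactoferrin (10.04, against 5.66 and 6.08), were far above the other controls. Krt1, Flg, Wap, Csn1s1, Csn2 and Lalba were below the lower quartile of the array (4.99 on the log2 scale). The difference of each member is therefore given with and without control replicate 2, and the part of other tissue in it was not tested.

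In inguinal fat of YY1bKO mice, 14 of the 15 sterol genes had a lower mean than in controls and 1, Fdft1, a higher mean. The median log2 difference was -0.80, beside 0.00 over all 12394 genes. No member of any branch passed an adjusted p of 0.05 by limma, where 0.0323% of all genes did. At an unadjusted p under 0.05 by limma, 1 sterol gene was lower (Hmgcs1) and 0 were higher, against 1.99% and 8.45% of all genes. Without control replicate 2 the median of the sterol branch was -0.09, 11 genes were lower and 4 higher, and 0 of 15 had an unadjusted p under 0.05 in either direction, where 2.82% of all genes were lower and 6.79% higher at that threshold and 0.0403% passed the adjusted one.

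**Figure D1:**
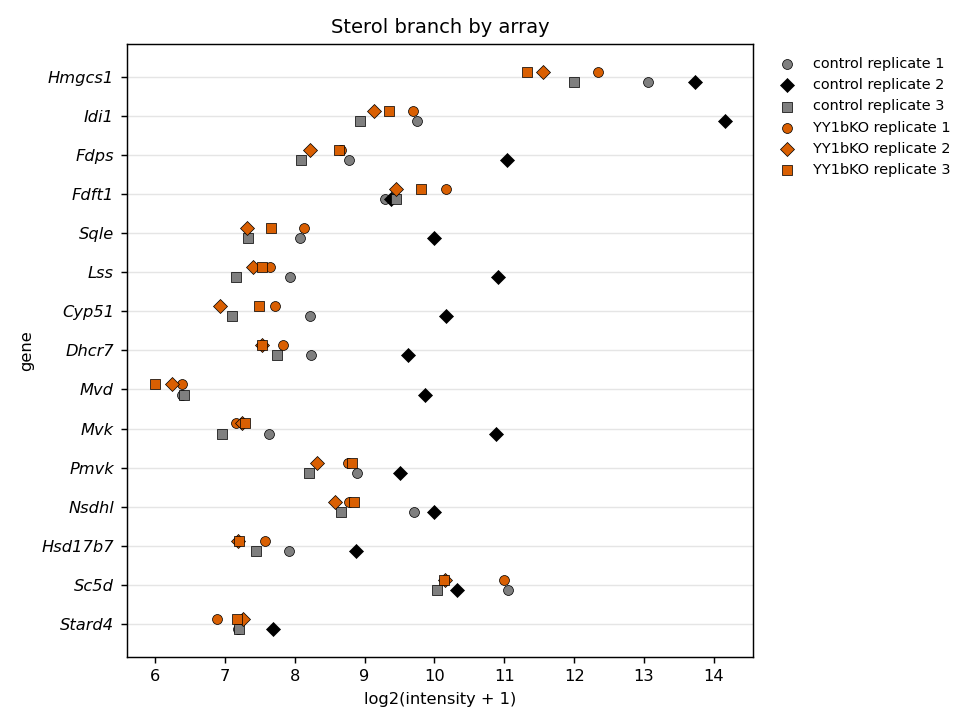
Values of the 15 measured sterol genes, log2(intensity + 1) on the x axis, with a point for each of the 6 arrays (grey and black for controls, orange for YY1bKO). Control replicate 2, the black diamond, is the rightmost point in 13 of 15 genes, while in Idi1, Fdps, Lss and Mvk the other controls lie on either side of the YY1bKO arrays.

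The pathway starts with acetyl-CoA and passes through mevalonate. Hmgcs1, the cytosolic HMG-CoA synthase, had values of 13.05, 13.73 and 12.00 among controls and 12.34, 11.55 and 11.32 in YY1bKO. The groups overlapped only through control replicate 3 and YY1bKO replicate 1, and all 4 of its probe sets were lower, by -1.59 to -1.11. Its log2 difference was -1.19 ± 0.48 (standard error, 3 arrays in each group), with a 95% confidence interval from -2.37 to -0.01 and a limma adjusted p of 0.475. Without control replicate 2 it was -0.79 ± 0.43 (limma adjusted p = 0.632, and 0.371 to 0.979 over all alternatives). This was the largest difference of the 15 sterol genes in that fit, and the 4 probe sets then ranged from -1.07 to -0.74.

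The mevalonate kinases and decarboxylase come next. Mvk, mevalonate kinase, had values of 7.64, 10.88 and 6.95 among controls and 7.16, 7.25 and 7.29 in YY1bKO. Its YY1bKO values lay between control replicates 3 and 1, and control replicate 2 was 12.0-fold above the mean of those 2 (taken, as in all such folds, on the log2 scale). The log2 difference was -1.26 ± 0.98 with all arrays and -0.06 ± 0.21 without control replicate 2. Mvd, which decarboxylates mevalonate diphosphate, had values of 6.39, 9.86 and 6.41 among controls and 6.38, 6.24 and 6.00 among YY1bKO, so that the groups did not overlap although control replicate 1 and YY1bKO replicate 1 were nearly equal. Mvd was the only sterol gene without overlap, where 5.0% of all genes were lower without overlap and 11.5% higher. Its difference was -1.34 ± 0.94 and, without control replicate 2, -0.19 ± 0.14. Pmvk, phosphomevalonate kinase, was closer between groups, with -0.24 ± 0.34 and 0.09 ± 0.26.

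Isoprenoid assembly gave the widest gap in the branch. Idi1, the isomerase of isopentenyl diphosphate, had values of 9.75, 14.16 and 8.94 among controls and 9.69, 9.13 and 9.35 in YY1bKO. Control replicate 2 was 28.1-fold above the mean of the other controls, whose values enclosed all 3 YY1bKO arrays. The log2 difference of -1.56 ± 1.32 (95% confidence interval -4.77 to 1.66) became 0.05 ± 0.29. Fdps, farnesyl diphosphate synthase, behaved alike, at 8.78, 11.04 and 8.09 among controls and 8.67, 8.22 and 8.63 among YY1bKO, with a difference of -0.80 ± 0.74 and, without that array, 0.07 ± 0.25.

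Fdft1, squalene synthase, commits farnesyl diphosphate to sterols and did not share the pattern. It measured 9.30, 9.37 and 9.45 among controls and 10.16, 9.45 and 9.80 among YY1bKO, so the controls were tight and 2 YY1bKO arrays lay above them. The difference of 0.43 ± 0.19 (limma adjusted p = 0.504) was 0.43 ± 0.22 without control replicate 2. A second bright probe set gave 0.48, and the 2 dim ones -0.14 and -0.07. Sqle, the epoxidase that follows it, was at 8.08, 9.998 and 7.34 among controls and 8.13, 7.32 and 7.66 among YY1bKO, and its difference went from -0.77 ± 0.67 to -0.01 ± 0.32. Neighbouring steps of the pathway therefore differed in whether control replicate 2 stood apart.

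The enzymes after squalene build and trim the sterol rings. Lss, lanosterol synthase, measured 7.94, 10.91 and 7.17 among controls and 7.65, 7.41 and 7.53 among YY1bKO, with a difference of -1.14 ± 0.93 that became -0.02 ± 0.24. Cyp51, lanosterol demethylase, measured 8.22, 10.16 and 7.10 against 7.73, 6.93 and 7.49, with -1.11 ± 0.75 and then -0.27 ± 0.40. In both genes the 2 remaining controls lay on either side of most YY1bKO arrays. Nsdhl, Hsd17b7 and Dhcr7, which act at demethylation, ketone reduction and the last double bond, kept more of their difference: -0.72, -0.76 and -0.91 with all arrays and -0.45 ± 0.31, -0.36 ± 0.20 and -0.37 ± 0.19 without control replicate 2. A second Hsd17b7 probe set did not keep it, at -0.63 with all arrays and -0.09 without control replicate 2. Control replicate 1 held the second highest value of all arrays in these 3 genes. Sc5d, sterol desaturase, was high in control replicate 1 and YY1bKO replicate 1 (11.06 and 11.00) and lay between 10.03 and 10.32 elsewhere, a difference of -0.04 ± 0.35, or -0.12 ± 0.41 without control replicate 2. Stard4, a carrier of cholesterol between membranes, differed by -0.25 ± 0.18 and by -0.09 ± 0.14 without control replicate 2.

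The 4 measured regulators were not alike. Scap measured 8.73, 11.08 and 8.90 among controls and 8.93, 8.96 and 8.94 among YY1bKO, with control replicate 2 at 4.81 times the mean of the other controls, and its difference of -0.63 ± 0.62 became 0.13 ± 0.10. Srebf2 measured 7.13, 8.49 and 7.95 among controls and 7.15, 7.12 and 7.16 among YY1bKO, where control replicate 1 was level with the YY1bKO arrays. The Srebf2 difference was -0.71 ± 0.33 (limma adjusted p = 0.527) and -0.40 ± 0.24 without control replicate 2, and its second probe set gave -0.20 and -0.18. Srebf1, which encodes both SREBP-1a and SREBP-1c, differed by -0.14 ± 0.24 with all arrays and by -0.09 ± 0.28 without control replicate 2. Insig2, an endoplasmic reticulum anchor of SCAP, differed by 0.10 ± 0.17 and 0.15 ± 0.20. With the probe sets used and all arrays, the groups overlapped in all 4, and 0 of 4 had an unadjusted p under 0.05 by limma. In the second Srebf2 probe set they did not overlap, where 5.0% of all genes were lower without overlap. It measured 7.30, 7.34 and 7.27 among controls and 7.06, 7.12 and 7.14 among YY1bKO. Over all alternatives the limma p of Srebf2 ran from 0.0015 to 0.24 unadjusted and from 0.129 to 0.979 adjusted.

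Of the 14 lipogenic genes, 7 were higher and 7 lower among YY1bKO, with a median of -0.14, and without control replicate 2 there were 8 higher and 6 lower, with a median of 0.12. At an unadjusted p under 0.05 by limma, Acacb, Thrsp and Aacs were higher, 3 of 14 where 8.45% of all genes were, and 0 were lower. Without control replicate 2 Fads1 joined them on the higher side and Scd2 was lower, 4 and 1 of 14, where 6.79% and 2.82% of all genes were. The groups did not overlap in 4 genes that were higher (Acacb, Thrsp, Aacs and Scd1), where 11.5% of all genes were so, and in 2 that were lower (Scd2 and Fads2), where 5.0% were. Other probe sets of Scd1, Scd2 and Fads2, and a dim one of Aacs, did overlap between groups.

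**Figure D2:**
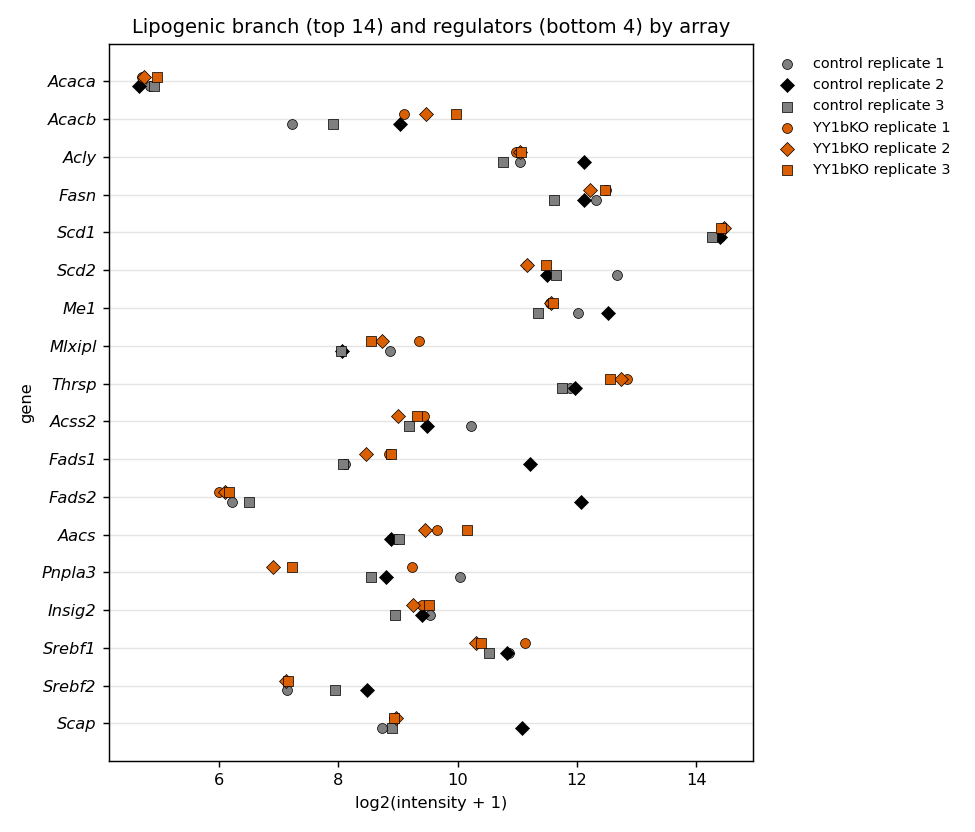
Values of the 14 lipogenic genes and, below them, of the 4 measured regulators, log2(intensity + 1) on the x axis, with a point per array. Thrsp and Aacs show 3 YY1bKO arrays to the right of 3 close controls, whereas in Fads1, Fads2 and Scap only control replicate 2 stands away from the other 5 arrays.

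Thrsp, the Spot 14 protein that accompanies fatty acid synthesis and responds to thyroid hormone and carbohydrate, gave the smallest p of all members. It measured 11.89, 11.97 and 11.75 among controls and 12.85, 12.74 and 12.56 among YY1bKO, so that every YY1bKO array lay above every control. The log2 difference was 0.85 ± 0.11 (95% confidence interval 0.57 to 1.13), a 1.80-fold higher level, with a limma adjusted p of 0.129, and Thrsp stood at rank 28 of 12394 genes by p. Its second probe set gave 0.98. Without control replicate 2 the difference was 0.90 ± 0.13 (limma adjusted p = 0.189), and over all alternatives the adjusted p ran from 0.105 to 0.642.

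Acacb and Aacs were the other higher members. Acacb encodes the acetyl-CoA carboxylase whose malonyl-CoA restrains entry of fatty acids into mitochondria, and measured 7.22, 9.03 and 7.91 among controls and 9.10, 9.47 and 9.97 in YY1bKO. Control replicate 2 came close to the lowest YY1bKO array, which was YY1bKO replicate 1. The difference was 1.46 ± 0.48, or 2.75-fold (limma adjusted p = 0.38), and 1.95 ± 0.32 without control replicate 2 (limma adjusted p = 0.244, and 0.244 to 0.970 over all alternatives). Aacs, acetoacetyl-CoA synthetase, which returns ketone bodies to lipid synthesis, measured 8.96, 8.88 and 9.02 against 9.65, 9.45 and 10.16, a difference of 0.80 ± 0.19 (limma adjusted p = 0.26) and of 0.76 ± 0.22 without control replicate 2. Of its other probe sets, 1 gave 0.58 and 1 near the lower quartile gave -0.02.

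The core enzymes that turn citrate into palmitate were nearer to each other. Fasn, fatty acid synthase, measured 12.32, 12.11 and 11.62 among controls and 12.49, 12.21 and 12.47 among YY1bKO, a difference of 0.38 ± 0.20 and of 0.43 ± 0.23 without control replicate 2. Acly, which cleaves citrate, measured 11.05, 12.13 and 10.76 against 10.98, 11.05 and 11.06, and went from -0.28 ± 0.34 to 0.12 ± 0.12. Only control replicate 2 was apart in Acly, by 2.33-fold over the mean of the other controls. Me1, malic enzyme, a source of NADPH, differed by -0.39 ± 0.29 and by -0.11 ± 0.21 without that array. Acss2, cytosolic acetyl-CoA synthetase, differed by -0.38 ± 0.28 and by -0.46 ± 0.33. The probe set of Acaca, the acetyl-CoA carboxylase of the cytosol, lay below the lower quartile in both groups (means of 4.80 and 4.80), so its difference of 0.00 (-0.07 without control replicate 2) is a value near background. Mlxipl differed by 0.56 ± 0.30 and by 0.42 ± 0.34, with control replicate 1 (8.86) inside the YY1bKO range of 8.55 to 9.35.

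Desaturases introduce double bonds, and the members of this class differed in sign. Scd1, the main stearoyl-CoA desaturase of adipose tissue, measured 14.39, 14.40 and 14.27 among controls and 14.44, 14.46 and 14.42 among YY1bKO, a difference of 0.09 ± 0.09 in which the groups did not overlap, and of 0.11 ± 0.10 without control replicate 2. This is among the brightest probe sets of the array, and the dimmer Scd1 probe set gave 0.33. In the dimmer one the groups overlapped, at 10.71, 11.18 and 10.14 among controls and 10.97, 11.04 and 11.00 among YY1bKO. Scd2, its close relative, measured 12.68, 11.50 and 11.65 against 11.16, 11.17 and 11.49, so control replicate 1 and not replicate 2 stood out. Its difference was -0.67 ± 0.32 and, without control replicate 2, -0.89 ± 0.32 (limma adjusted p = 0.483, and 0.341 to 0.979 over all alternatives). Without control replicate 1 it was -0.30. With all arrays its probe sets ranged from -0.71 to -0.31.

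Fads1 and Fads2 are the desaturases of polyunsaturated fatty acids, and the gap of control replicate 2 over the other controls was larger in Fads2 than in any other measured member. Fads2 measured 6.22, 12.07 and 6.50 among controls and 6.00, 6.11 and 6.16 among YY1bKO, with control replicate 2 at 52.3 times the mean of the other controls. Its log2 difference of -2.17 ± 1.54 became -0.27 ± 0.13. A second Fads2 probe set measured 6.10, 9.97 and 6.19 among controls and 6.00, 6.14 and 6.13 among YY1bKO, so the groups overlapped. Its difference went from -1.33 to -0.05. Fads1 measured 8.11, 11.22 and 8.08 among controls and 8.85, 8.47 and 8.89 among YY1bKO, and its difference turned from -0.40 ± 0.85 to 0.64 ± 0.16 (limma adjusted p = 0.347 without that array, and 0.347 to 0.984 over all alternatives). The 2 remaining controls of Fads1 lay below all YY1bKO arrays. Pnpla3, an acylglycerol hydrolase under lipogenic control, varied within both groups, at 10.04, 8.79 and 8.54 among controls and 9.23, 6.91 and 7.22 among YY1bKO, with a difference of -1.34 ± 0.70, or -1.50 ± 0.82 without control replicate 2. In YY1bKO replicate 1 it was above 2 of the 3 controls, and without control replicate 2 and YY1bKO replicate 1 its difference was -2.23 (limma adjusted p = 0.772, and 0.282 to 0.979 over all alternatives).

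**Figure D3:**
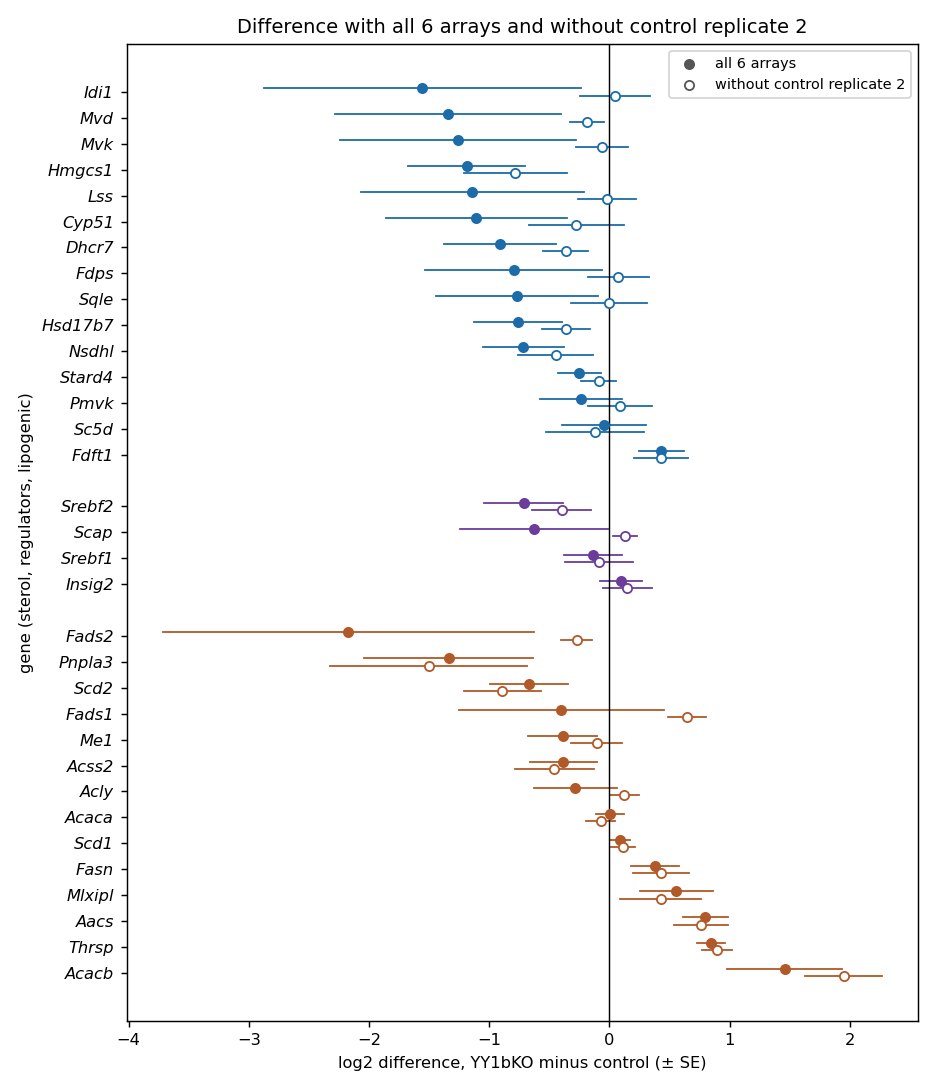
Log2 difference between YY1bKO and control for each member on the x axis, with bars for the standard error, from the fit of all 6 arrays (filled) and from the fit without control replicate 2 (open). Sterol genes such as Idi1, Mvk and Lss go from -1.56, -1.26 and -1.14 to values near 0, while Acacb, Thrsp and Aacs stay on the right in both fits.

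Set side by side by array, the mean of the 15 sterol genes relative to their own means was 0.06, 1.66 and -0.56 in control replicates 1 to 3 and -0.16, -0.58 and -0.43 in YY1bKO replicates 1 to 3. The lipogenic mean was -0.01, 0.56 and -0.39 among controls and 0.06, -0.21 and -0.01 in YY1bKO. Apart from control replicate 2, the sterol mean was highest in control replicate 1 and YY1bKO replicate 1, which had the lowest B cell list means (-1.61 and -2.0, against 1.89 in control replicate 3, 1.05 in YY1bKO replicate 2 and -0.09 in YY1bKO replicate 3). YY1bKO replicate 1 also had the highest skeletal muscle mean (2.44, against -0.64 to -0.16 elsewhere). White adipocyte genes had means of 0.05, -0.36 and -0.28 among controls and 0.28, 0.09 and 0.22 among YY1bKO, so by means all YY1bKO arrays lay above all controls. By list medians the groups overlapped, with 0.09 in control replicate 1 and 0.05 in YY1bKO replicate 2. Brown and beige adipocyte genes were farther apart, with means of -0.78, -0.97 and -1.33 among controls and 1.008, 1.08 and 0.99 among YY1bKO. All 12 measured genes of that list were higher in YY1bKO, where 6318 of all 12394 genes were. By limma, 3 of them (Ucp1, Fabp3 and Slc27a2) passed an adjusted p of 0.05, where 0.0323% of all genes did. The median difference was 1.40, or 1.67 without control replicate 2. Cidea, 1 of the 12, had its highest value of all arrays in control replicate 2 (11.01). Thrsp, Acacb and Aacs were named for being higher in YY1bKO, so that they share these 3 arrays was fixed by that choice. A link between them and the adipocyte lists was not tested. In a bulk sample fewer cells of a type and less RNA per cell cannot be told apart, and the part of cell composition in these values was not tested.

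**Figure D4:**
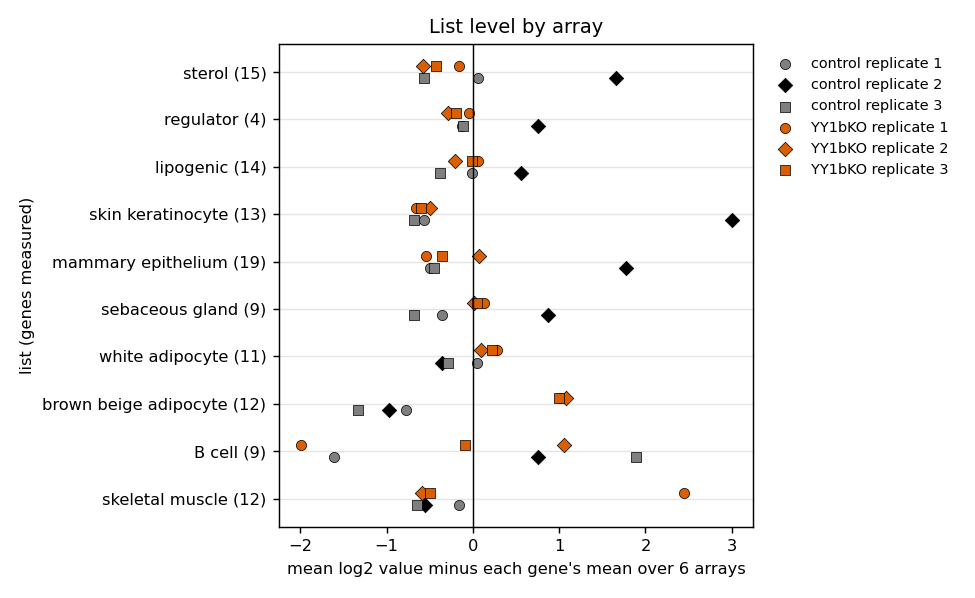
Mean log2 value of each gene list relative to each gene's mean over the 6 arrays, with a point per array and the number of genes measured in brackets. Control replicate 2 stands apart in the sterol (1.66), keratinocyte (3.0) and mammary (1.77) lists, and YY1bKO replicate 1 in the skeletal muscle list (2.44).

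The sebaceous gland list, which holds genes of a lipid-producing skin gland, gave a mixed picture in control replicate 2. Its mean was -0.36, 0.87 and -0.68 among controls and 0.12, 0.02 and 0.04 among YY1bKO, over 9 measured genes of which brown fat also expresses Cidea and Elovl3. In control replicate 2, 4 of 9 exceeded the mean of the other controls by over 1, where 4.09% of all genes did. Cidea was 1 of those 4, by 2.17. Fa2h, a fatty acid hydroxylase, was at 11.53 in control replicate 2 against 6.08 and 5.94, and Krt79, a keratin of the gland's duct, at 12.82 against 8.76 and 7.87. Elovl3 (5.66), Plet1 (6.20), Mogat1 (7.86) and Pparg (10.13) in the same array did not stand above both other controls, and Mc5r was at 5.82 against 4.87 and 4.65. Scd3, a relative of Scd1, was at 5.18 against 4.49 and 4.39, with a control mean below the lower quartile. Among YY1bKO it was higher still, at 5.67, 5.69 and 5.73. Whether the sterol and desaturase values of that array came from gland tissue was not tested.

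Genes of sterol supply outside the member list were read beside these. The 14 further genes measured were of sterol enzymes, transport and SREBP processing, with the NF-Y subunits Nfya, Nfyb and Nfyc counted among them. Of these 14, 0 were higher or lower at an unadjusted p under 0.05 by limma, where 8.45% and 1.99% of all genes were. Their median difference was -0.12. Msmo1, a methylsterol oxidase, and Tmem97, a sterol-responsive membrane protein, had differences of -1.26 and -1.65, and in control replicate 2 they exceeded the other controls by 3.31 and 4.51. Without that array they differed by -0.16 and -0.15. Npc1, which exports cholesterol from lysosomes, then differed by 0.86 and Npc2, its partner, by -0.28, which made 1 gene higher and 1 lower at an unadjusted p under 0.05, where 6.79% and 2.82% of all genes were. The NF-Y subunits Nfya, Nfyb and Nfyc differed by -0.07 to -0.01 with all arrays.

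Of 10 genes of cholesterol efflux, oxysterol metabolism and LXR, the oxysterol receptor, 3 were higher at an unadjusted p under 0.05 by limma with and without control replicate 2: Cyp27a1, a sterol hydroxylase (0.51), Nr1h3, which encodes LXR-alpha (0.62), and Apoe (0.37). Of all genes, 8.45% were higher at that threshold with all arrays and 6.79% without control replicate 2. The list's median was 0.05 with all arrays and -0.02 without that array, and none passed an adjusted p of 0.05. Of 13 further genes of lipid synthesis and fuel supply, 4 were higher and 0 lower at an unadjusted p under 0.05 by limma, where 8.45% of all genes were higher and 1.99% lower, with a median of 0.33, or 0.30 without control replicate 2. They were Pck1, the carboxykinase of glyceroneogenesis (0.82, limma adjusted p = 0.060), Lpin1, a phosphatidate phosphatase (1.03), Slc2a4, the insulin-responsive glucose transporter (0.88), and Dgat1, which completes triglyceride (0.44). Elovl6, the elongase that follows Fasn, differed by 0.71, and Gpam, the first acyltransferase, by 0.33. Lower in YY1bKO were Acsl5 (-0.63), Pgd (-0.27), Mid1ip1 (-0.20) and Dgat2 (-0.10). Without control replicate 2 these became -0.05, -0.21, -0.10 and -0.29, and in Acsl5 that array exceeded the other controls by 1.75. Without control replicate 2 Elovl6 differed by 0.41. In that fit 4 of the 13 were higher at an unadjusted p under 0.05 by limma, where 6.79% of all genes were. Gpam (0.51) was then among them and Dgat1 (0.43) was not.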

How the data were processed

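Total RNA was hybridised to Affymetrix mouse arrays, and the authors deposited an intensity per probe set made with RMA, per the submitters' processing notes. The sources used here do not give its version. That the scale is linear was inferred from the range, 5.4 to 25730.1. RMA equalises the arrays (medians 123.15 to 130.35), compresses low values and hides a change of total RNA. Gene symbols came from the array platform's annotation, in which 20393 of 22690 probe sets had 1 symbol. All 12394 genes, each by its brightest probe set, were fitted on the log2(intensity + 1) scale with limma 3.58.1 under R 4.3.3, 2-sided, with Benjamini-Hochberg adjustment over all genes and a threshold of 0.05. The motif search was tested on built strings. The rule for named genes took every measured member, up to 4 genes of smallest p in each pathway list, the brightest genes of each marker list, Yy1 and Ucp1. Other list genes that are named were chosen after their values were seen. Members and lists were chosen with earlier results of these data known. Medians of branches carry no test. No array pair was a duplicate (Spearman correlations 0.957 to 0.994). Alternatives were each array left out, a pseudocount of 16, a filter at the 25th percentile, quantile normalization, median subtraction, the mean of all probe sets, array weights, an intensity trend and the replicate number as a block. The number of arrays limits the precision.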

Additional observations from a re-analysis of the deposited data

How the results depend on the processing

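No member passed an adjusted p of 0.05 by limma in any alternative. Over all genes 4 passed; leaving out each array in turn gave 1 to 5, a pseudocount of 16 gave 9, array weights 9 and the replicate block 1, with causes not tested. Same-numbered arrays were not taken as pairs, since their deviations correlated at 0.61, 0.097 and 0.031, and with the replicate block 0 members passed. With arrays left out, medians ran from -1.33 to -0.090 (sterol), -0.26 to 0.12 (lipogenic) and -0.56 to 0.020 (regulators), the upper ends being those without control replicate 2. Without that array the sign turned in Idi1 (0.048; range over arrays left out -2.56 to 0.048), Fdps (-1.40 to 0.073), Pmvk (-0.57 to 0.086), Scap (-1.05 to 0.14), Acly (0.12), Fads1 (-0.93 to 0.64) and Acaca (-0.073; range -0.076 to 0.056, with -0.076 without YY1bKO replicate 3). The sign also turned in Sc5d (-0.40 to 0.25; without control replicate 1, or YY1bKO replicate 2 or 3, and 0.053 with the mean of all probe sets), in Insig2 without control replicate 3 (-0.073 to 0.22) and in Srebf1 without YY1bKO replicate 2 (-0.40 to 0.016). Without both control replicate 2 and YY1bKO replicate 1, an alternative chosen after seeing the data, 1 gene passed, the medians were -0.22 (sterol), 0.13 (lipogenic) and -0.11 (regulators), and the sign turned in Pmvk (0.021), Stard4 (-0.34 to 0.022), Scap (0.14), Acaca (-0.023), Acly (-0.56 to 0.15) and Fads1 (0.59). The other members kept their sign in all alternatives; the filter on dim probe sets left out Acaca.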
